A study of Mus musculus with 14 samples.

Results

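Replication-dependent histone genes are the short, intronless genes that supply core histones H2A, H2B, H3 and H4 and linker histone H1 during S phase. In the mouse they lie mainly in clusters on chromosome 13 (Hist1) and chromosome 3 (Hist2), with smaller groups such as Hist3 on chromosome 11. Their transcription is organised by NPAT in nuclear histone locus bodies, and their messages end in a stem-loop in place of a poly(A) tail. The measurement was acetylation of histone H3 at lysine 9 (H3K9ac), a mark of active promoters, by chromatin immunoprecipitation and sequencing (ChIP-seq) of regenerating mouse liver. The members are all peaks lying no more than 1 kb from either end of protein-coding genes whose current or older RefSeq symbols belong to these families. That gave 71 of 21900 protein-coding genes, and 773 of 357969 peaks. Merging overlapping peaks of all libraries placed the members in 54 of 57979 regions. The symbols put 54 genes in Hist1, 10 in Hist2, 2 in Hist3 and 1, H4f16 on chromosome 6, under the older name Hist4h4. They also brought in 4 linker histone genes outside the clusters, H1f0, H1f7, H1f8 and H1f10, which are not replication-dependent and are described apart.

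The mice were C57BL6/J males, 2 to 3 months old, and livers were taken 12 h after partial hepatectomy, the removal of part of the liver that drives the remaining hepatocytes to divide. The study examined how delaying the fall in blood glucose after the operation affects H3K9ac. The 12 libraries fall by their titles into d22 and pbs, with 6 in each. The d22 libraries carry the label of vehicle (diluted PBS) and the pbs libraries that of 22.5% dextrose, so title and treatment label contradict each other, and the groups are named by title here with every difference given as d22 minus pbs. No label says whether each library came from its own animal, and a p-value here reflects the spread among these libraries alone, part of which may be technical. Depth ran from 6343891 filtered tags in d22 replicate 4 to 13259411 in pbs replicate 1. Peak calling used 1 pooled input for the d22 libraries and a second for the pbs libraries, so any effect of the input on the listing and length of peaks cannot be told apart from the group. As a check of the tissue label, 6 of 9 hepatocyte marker genes had a peak in all 12 libraries, with summed levels of 104 to 303 tags per 1000000 filtered tags for d22 and 217 to 403 for pbs, while none of 5 neutrophil and 4 cholangiocyte markers had a peak in any library. Tissue was measured whole, so fewer cells with the mark and less mark per cell cannot be told apart.

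The promoters of these genes share short sequence elements, shown first for the genes that the measurements below turn on. RefSeq's table of promoters (GRCm38.p6, 250 bases before to 50 after each start) held 67 entries for 66 of the 71 genes. CCAAT, the letters of the CCAAT box, was searched on both strands and stood in 82.1% of the 67 entries, against 37.4% of all 32851 promoters of the same length. It was found in all 6 H1, 18 H2A, 17 H2B and 10 H3 promoters of the clusters and in 3 of 12 H4 promoters. TATAAA, which the TATA-binding protein recognises in core promoters, stood in 52.2% against 13.6%. The octamer ATTTGCAT, which POU factors bind, stood in 7 of 18 H2A and 7 of 17 H2B promoters, in no H1, H3 or H4 promoter, and in 1.74% of all promoters. GGTCC, part of the H4 subtype element, stood in 11 of 12 H4 promoters, although 45.5% of all promoters hold these 5 letters. The longer string AACACAAA, searched for the H1 box, stood in 1 of 6 H1 promoters of the clusters and in 1.69% of all promoters. The H1f2 and H1f4 promoters printed below hold AACACAA without the last A and are not counted, so this is no count of H1 boxes. Neighbouring H2A and H2B genes that face away from each other share parts of these windows, so their matches are not independent, and no motif contains another. The matches are descriptions of the letters only. The sequences below run 5′ to 3′ along each gene. Capitals mark exact matches, on either strand, to the strings searched for the TATA box, the CCAAT box, the octamer and the H1 box. In the H4 promoter they also mark the string of the H4 subtype element. H2ac18 and H2ac19 are shown as near copies at the 2 Hist2 regions with the densest signal, H1f2 and H2ac6 for the highest regions of Hist1, H1f4 and H4c3 for the smallest p-values between the groups, and H2bc1 as a testis gene with a peak in 1 library only. The windows are H2ac18 at chr3:96245247-96245546 on the plus strand, H2ac19 at chr3:96240325-96240624 on the minus strand, H1f2 at chr13:23738557-23738856 on the plus strand. The others are H1f4 at chr13:23622509-23622808 on the minus strand, H2ac6 at chr13:23683910-23684209 on the minus strand, H4c3 at chr13:23698409-23698708 on the minus strand and H2bc1 at chr13:23934107-23934406 on the minus strand.
H2ac18: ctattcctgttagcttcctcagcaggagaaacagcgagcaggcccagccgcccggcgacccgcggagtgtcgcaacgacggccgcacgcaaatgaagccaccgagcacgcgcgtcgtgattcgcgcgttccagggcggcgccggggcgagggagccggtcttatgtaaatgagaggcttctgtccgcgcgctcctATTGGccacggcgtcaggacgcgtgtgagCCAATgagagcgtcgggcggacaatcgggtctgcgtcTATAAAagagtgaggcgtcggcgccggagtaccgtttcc
H2ac19: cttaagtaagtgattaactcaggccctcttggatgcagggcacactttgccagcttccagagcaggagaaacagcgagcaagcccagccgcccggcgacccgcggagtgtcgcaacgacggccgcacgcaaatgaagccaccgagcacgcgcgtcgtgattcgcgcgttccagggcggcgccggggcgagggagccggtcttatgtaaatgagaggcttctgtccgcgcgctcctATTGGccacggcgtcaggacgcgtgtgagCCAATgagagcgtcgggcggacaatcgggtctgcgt
H1f2: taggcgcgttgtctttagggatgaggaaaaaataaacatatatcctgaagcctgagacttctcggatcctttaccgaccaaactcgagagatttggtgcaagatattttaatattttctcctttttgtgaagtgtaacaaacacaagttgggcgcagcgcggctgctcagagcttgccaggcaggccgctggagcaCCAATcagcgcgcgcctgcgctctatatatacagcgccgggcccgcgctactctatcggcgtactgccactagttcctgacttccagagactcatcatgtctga
H1f4: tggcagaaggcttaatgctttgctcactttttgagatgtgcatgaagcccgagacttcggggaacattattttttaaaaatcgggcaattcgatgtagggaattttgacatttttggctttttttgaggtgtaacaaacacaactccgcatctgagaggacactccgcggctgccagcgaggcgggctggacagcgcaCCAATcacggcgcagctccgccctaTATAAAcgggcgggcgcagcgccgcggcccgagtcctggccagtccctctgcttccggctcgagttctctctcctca
H2ac6: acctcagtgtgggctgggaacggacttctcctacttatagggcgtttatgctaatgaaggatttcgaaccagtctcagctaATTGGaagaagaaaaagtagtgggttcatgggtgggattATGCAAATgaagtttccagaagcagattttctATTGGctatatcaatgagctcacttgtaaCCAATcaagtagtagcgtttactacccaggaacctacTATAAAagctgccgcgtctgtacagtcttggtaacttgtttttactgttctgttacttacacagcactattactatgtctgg
H4c3: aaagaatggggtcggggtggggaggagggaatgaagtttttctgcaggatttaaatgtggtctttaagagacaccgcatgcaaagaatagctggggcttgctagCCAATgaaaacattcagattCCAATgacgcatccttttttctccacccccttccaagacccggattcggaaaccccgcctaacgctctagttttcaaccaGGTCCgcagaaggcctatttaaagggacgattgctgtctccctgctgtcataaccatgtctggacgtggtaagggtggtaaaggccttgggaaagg
H2bc1: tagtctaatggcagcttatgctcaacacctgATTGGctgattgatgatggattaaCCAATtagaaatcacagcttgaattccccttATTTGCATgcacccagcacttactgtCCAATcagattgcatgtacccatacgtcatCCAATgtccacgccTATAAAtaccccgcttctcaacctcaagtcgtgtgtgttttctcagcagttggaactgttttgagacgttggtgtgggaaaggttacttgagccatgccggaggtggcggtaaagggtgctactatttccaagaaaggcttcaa

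Several of these genes are near copies of each other, which limits where 48 or 49 base reads can be placed. Every 49-base stretch of the H2bc23 promoter also stood in that of H4bc24 (older name Hist1h2br). The share was 94.0% for H4c17 and H4c18, 86.9% for H2ac23, 73.4% for H2ac24, 74.6% for H3c14 and H3c15, and 67.9% for H2ac18 and H2ac19. H4c11 and H4c12 shared 12.3%, and the other 55 of 67 promoters shared no such stretch with a member elsewhere. Values at the copies are therefore uncertain, since how the authors' alignment treated reads that match several places is not given in the sources used here.

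At the caller's own threshold, H3K9ac was found at most of the family in every library. Many of these genes lie close together, so 1 peak can count for several of them. The region of H2bc13/H2ac13/H3c10 counted for 3 genes. For H3c10 the strongest point of the signal stood at a median of -946 bp, upstream of its start and on the side of H2ac13. The counts here are of genes near a peak, not of separate peaks. A peak lay at the ends of 44 of 71 genes (62.0%) in all 12 libraries, against 45.8% of all protein-coding genes. That order turned with the strength of the peaks: with scores of at least 100 it was 21 of 71 (29.6%), against 41.6% of all protein-coding genes, and 9 of 10 in Hist2 but 9 of 54 in Hist1. A further 20 genes, all in Hist1, had a peak in 10 or 11 libraries. By class, all 12 libraries had a peak at 5 of 6 H1 genes of the clusters, 13 of 18 H2A, 9 of 18 H2B, 8 of 12 H3 and 8 of 13 H4 genes. Hist2 was called without a gap, with all 10 genes marked in all 12 libraries. In Hist1 it was 31 of 54, made up of 12 of 18 genes in the first segment (chr13:21715711-21837530), 2 of 5 in the second (chr13:22035122-22043658) and 17 of 29 in the third (chr13:23531044-23764412), where segments are separated by more than 100 kb.

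**Figure D1:**
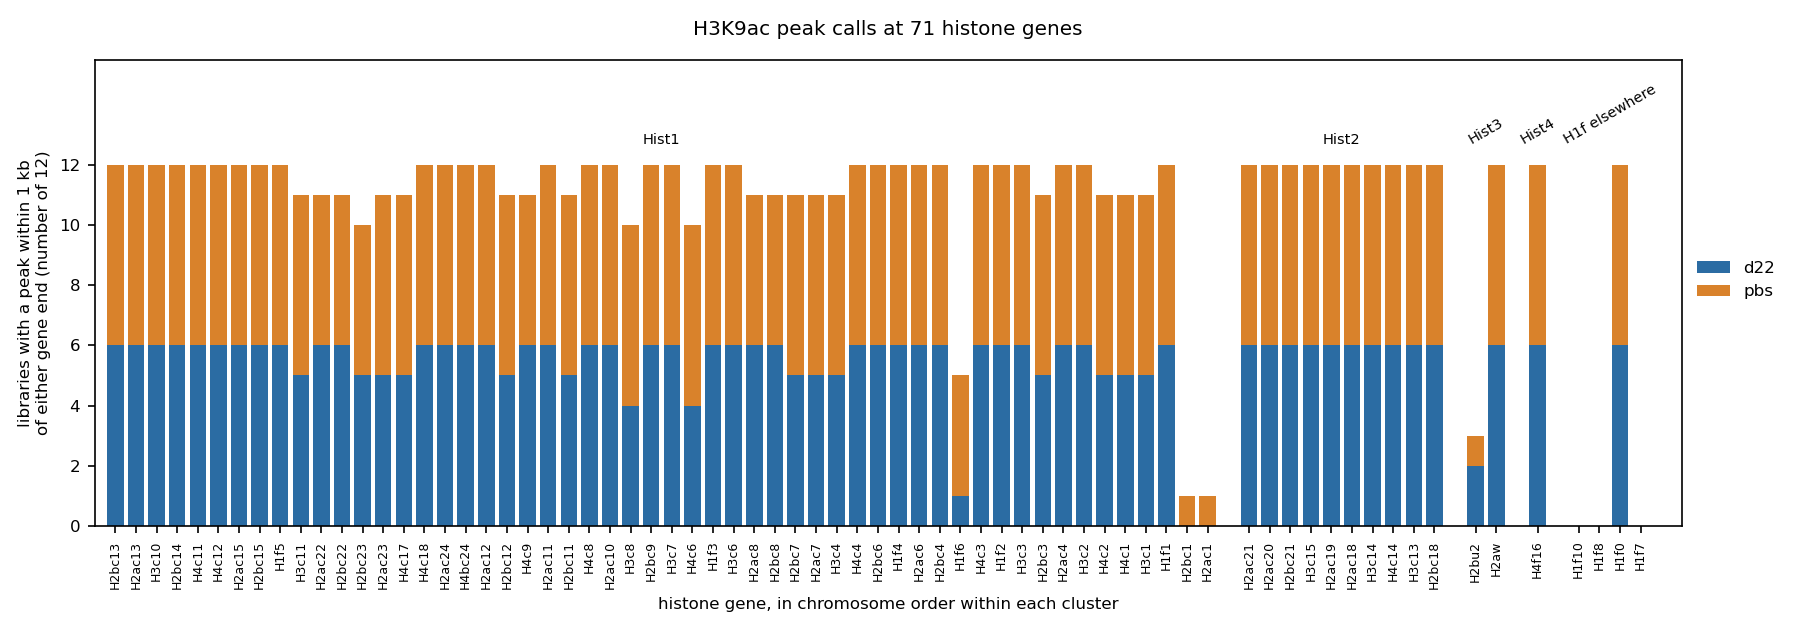
Number of libraries, of 12, with an H3K9ac peak within 1 kb of either end of each of the 71 genes, stacked by group (d22 blue, pbs orange) in chromosome order within each cluster. All 10 Hist2 genes reach 12, most Hist1 genes reach 10 to 12, and H2bc1, H2ac1, H1f6, H2bu2 and 3 linker genes outside the clusters stand low.

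Few or no calls were found at genes of the germ line, at H2bu2 and at H1f10. H2bc1 and H2ac1, which encode testis forms of H2B and H2A and stand alone at the far end of Hist1, had a peak of 8 tags in pbs replicate 3 and in no other library. H1f6, the testis linker histone H1t (chr13:23695811-23696545), had a peak within 1 kb of an end in 1 d22 and 4 pbs libraries. Only a peak of 14 tags in pbs replicate 6 (chr13:23696045-23696527) lay over the gene itself. The peaks of the other libraries belonged to the region over H4c3 (chr13:23697127-23699152), which starts past the end of H1f6. H2bu2 in Hist3 had a peak in 2 d22 libraries and 1 pbs library, with 12 to 18 tags. Outside the clusters H1f7 and H1f8, linker histones of spermatids and oocytes, and H1f10, a linker histone made outside S phase, had no peak in any library. Because the files list only peaks past the caller's threshold, an unlisted gene has no value rather than a value of 0.

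Levels were compared in the 28 member regions that had a peak in all 12 libraries, 20 of them in Hist1, 5 in Hist2, and 1 each at H2aw, H4f16 and H1f0. The unit is CPM, the tags in peaks per 1000000 tags of the tested regions after TMM scaling. The median of the regions' mean levels was 36.0 CPM in Hist1 and 146 CPM in Hist2, against 69.6 CPM over 8989 gene-end regions called in all 12 libraries. Called length, the summed length of a library's peaks in a region, had medians of 1474 bp in Hist1, 2974 bp in Hist2 and 2016 bp over the gene-end regions. Per length the order held, at 45.9 tags per kb of called peak in Hist1, 90.0 in Hist2 and 68.8 over the gene-end regions. These are descriptions of regions that passed the requirement of a peak in every library, not of all members.

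**Figure D2:**
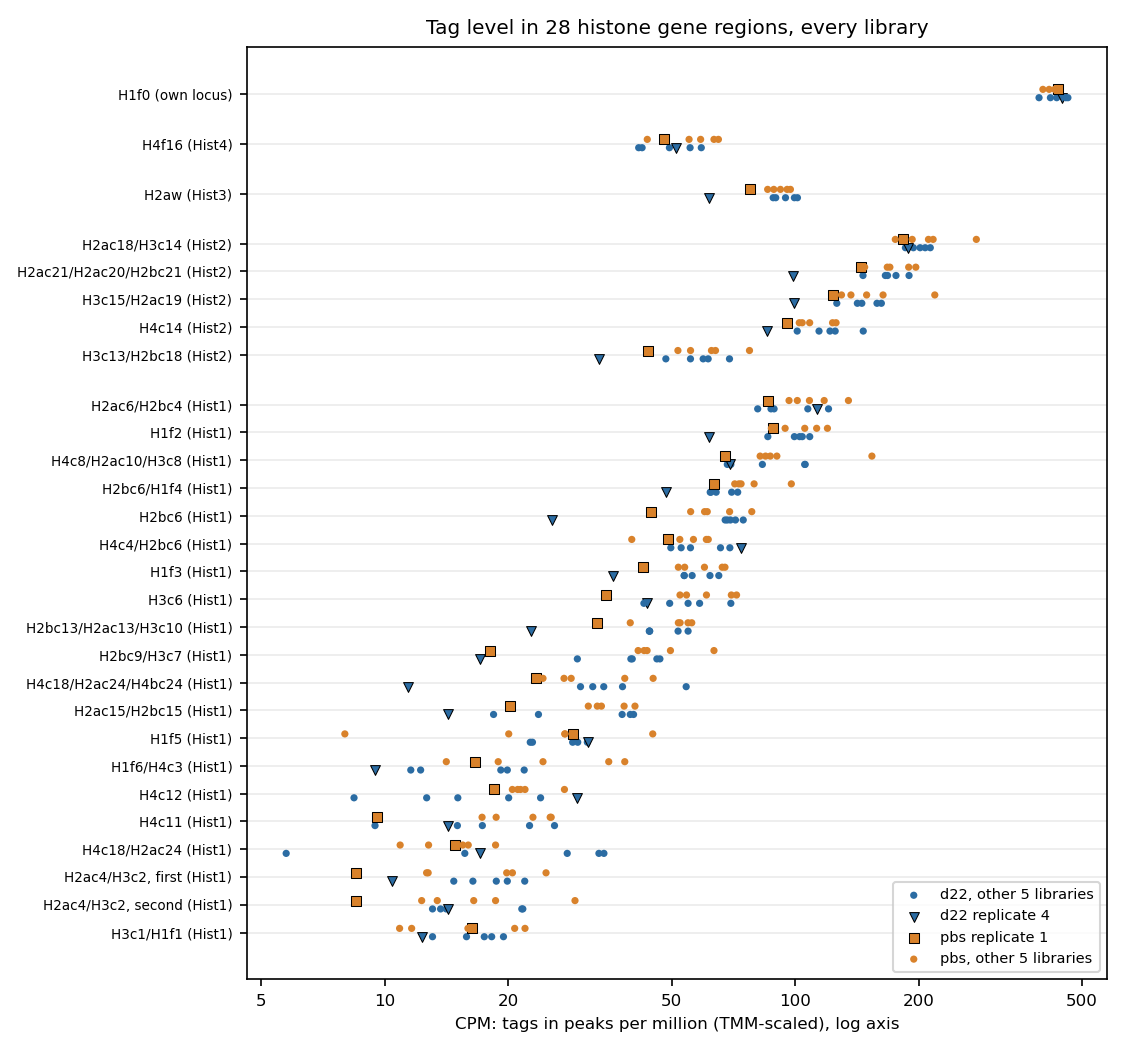
CPM of every library (log axis) in the 28 member regions, ordered by mean level within each cluster, with d22 in blue and pbs in orange. The groups overlap in every region, and d22 replicate 4 (triangle) and pbs replicate 1 (square) are often at the low end of their group.

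Hist2 held the strongest signal of the clusters within 50.3 kb. The region of H2ac18, an H2A gene, and H3c14, an H3 gene (chr3:96243660-96247950), ran from 186 to 213 CPM with a median of 198 in d22, and from 175 to 276 with a median of 202 in pbs. pbs replicate 3 was the highest at 276, and the other 11 libraries lay between 175 and 217. The region of its near copies H3c15 and H2ac19 (chr3:96238125-96241238) ran from 99.6 to 162 CPM with a median of 144 in d22, and from 124 to 219 with a median of 143 in pbs. It was the densest member region, at 144 tags per kb, above 99.8% of the 8989 gene-end regions called in all 12 libraries. H2ac18/H3c14 followed at 121 tags per kb. The region of 3 genes for H2A and H2B, H2ac21, H2ac20 and H2bc21 (chr3:96218564-96222726), had 157 ± 32.0 CPM for d22 and 169 ± 21.1 for pbs (SD, n = 6 each). H4c14, the H4 gene of Hist2, had 116 ± 21.0 and 110 ± 12.1 CPM, and H3c13/H2bc18 had the lowest level of Hist2, 54.6 ± 12.5 and 59.2 ± 11.5 CPM (SD, n = 6 each). d22 replicate 4 was the lowest library in 4 of these 5 regions, all but H2ac18/H3c14.

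The 3 highest regions of Hist1 lay at H2ac6/H2bc4, H1f2 and H4c8/H2ac10/H3c8. H2ac6/H2bc4 (chr13:23682630-23686866), a gene of H2A and one of H2B, ran from 81.0 to 121 CPM with a median of 98.1 in d22, and from 85.7 to 135 with a median of 105 in pbs. H1f2, which encodes the linker histone H1.2 (chr13:23737825-23741030), ran from 61.7 to 109 CPM with a median of 101 in d22, and from 87.5 to 120 with a median of 100 in pbs. Its lowest value was that of d22 replicate 4, and the groups overlapped in both regions. H4c8/H2ac10/H3c8 (chr13:23529801-23534862) had 83.6 ± 17.9 CPM for d22 and 94.2 ± 30.3 for pbs (SD, n = 6 each), with pbs replicate 2 at 154 CPM and the other pbs libraries at 67.3 to 90.2. The lowest were the region of H3c1 and H1f1, an H3 and an H1 gene, with 16.1 ± 2.87 and 16.2 ± 4.54 CPM, and the 2 regions of H2ac4 and H3c2. The first of those (chr13:23750924-23751908) had 17.0 ± 4.10 and 16.5 ± 6.12 CPM and the second (chr13:23752050-23753079) 16.4 ± 4.08 and 16.4 ± 7.12 CPM (d22 and pbs, SD, n = 6 each). In Hist1 the mean levels thus spanned 16.2 to 104 CPM, and the lowest 3 neighbours in this order did not differ beyond their spread.

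The remaining regions lay outside the large clusters. H2aw, the H2A gene of Hist3, shares its region (chr11:58953103-58956774) with Trim17, and ran from 61.7 to 101 CPM with a median of 92.2 in d22, and from 77.5 to 97.4 with a median of 90.4 in pbs. H4f16, an H4 gene on its own (chr6:136803067-136805502), had 49.8 ± 6.97 CPM for d22 and 55.6 ± 8.54 for pbs (SD, n = 6 each). H1f0 encodes H1.0, the linker histone of differentiated and resting cells, and lies beside Gcat in a region of 9488 bp mean called length (chr15:79021170-79031772). It ran from 393 to 462 CPM with a median of 440 in d22, and from 401 to 437 with a median of 430 in pbs. That is a higher level than in any cluster region, above 99.2% of the 8989 gene-end regions called in all 12 libraries. Per length the region stood less apart, at 91.3 tags per kb, above 86.6% of those regions. This was below the 144 and 121 tags per kb of H3c15/H2ac19 and H2ac18/H3c14. Its CPM varied little among libraries.

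At most of the genes, the strongest point of the signal lay past the start, though not always inside the gene. For 59 member genes with a start in RefSeq and a peak in at least 10 libraries, the summit of the strongest peak was a median of 178 bp downstream of the start, and 62.7% were downstream, against 244 bp and 82.0% of 8751 genes treated the same way. A peak covered the start itself in every library with a call at 28.8% of these member genes, against 61.5% of all. At H1f2 the median summit was 530 bp downstream and at H4c3 199 bp. At H2ac18 it was 672 bp downstream, past the end of this gene of 556 bp. At H2ac6 it stood at -1537 bp, upstream of the start and on the side of H2bc4. Of 10 pairs of H2A and H2B genes in Hist1 that face away from each other, with starts 164 to 281 bp apart, a single peak covered both starts in at most 7 libraries, those at H2ac15/H2bc15. At H2ac8/H2bc8, called in 11 libraries, no peak covered both.

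Single libraries stood apart at these genes. Peaks stood at 37 of the 54 Hist1 genes in d22 replicate 4 and at 45 in pbs replicate 1, against 49 to 53 in the other 10 libraries. Of 45 member regions called in at least 10 libraries, d22 replicate 4 lacked 11 (24.4%) and pbs replicate 1 lacked 5 (11.1%), while over 9700 gene-end regions of the same kind they lacked 3.02% and 0.155%. pbs replicate 5 lacked 3, d22 replicate 5 lacked 2, and the other 8 libraries lacked none. Of these, d22 replicate 4 was the shallowest library and pbs replicate 1 the deepest, while pbs replicate 3, with 6385610 tags, lacked none; the part of depth was not tested. d22 replicate 4 alone listed 44585 peaks genome-wide, against 26352 to 30780 in the others.

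The levels showed the same libraries. In the 20 Hist1 regions the median deviation from the mean of 12 libraries was -0.43 on the log2 scale in d22 replicate 4 and -0.37 in pbs replicate 1, against 0.35 in pbs replicate 2 and 0.22 in pbs replicate 6. In Hist2 it was -0.53 in d22 replicate 4 and -0.22 in pbs replicate 1. Over all 12375 tested regions these medians lay between 0.01 and 0.02 in every library. d22 replicate 4 was the lowest of the 12 in 14 of 28 member regions, against 23.7% of all tested regions, and pbs replicate 1 was the lowest of its 6 in 19 (67.9%), against 16.6%. Other gene lists moved less and were in part ordered alike, here over every tested region at the genes' ends. In 24 regions of genes that organise histone transcription and process histone messages, such as Npat and Casp8ap2, the median was 0.09 in d22 replicate 4, and pbs replicate 1 was the lowest of the 12 at -0.10. In 7 regions of other genes lying between those of Hist1, pbs replicate 1 was again the lowest of the 12 at -0.17. There pbs replicate 2 was the highest at 0.20, as in Hist1 itself. Unlike in Hist1, d22 replicate 4 was at 0.12 and pbs replicate 6 at -0.13. At 11 regions of variant histone genes, which include that of H1f0, pbs replicate 1 was the lowest at -0.05, with d22 replicate 4 at 0.04. The order differed at 25 regions of histone chaperone and deposition genes. There d22 replicate 1 was the lowest at -0.07, d22 replicate 4 the highest at 0.13, and pbs replicate 1 was at -0.03. S phase genes, where pbs replicate 1 was the highest, are given below.

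**Figure D3:**
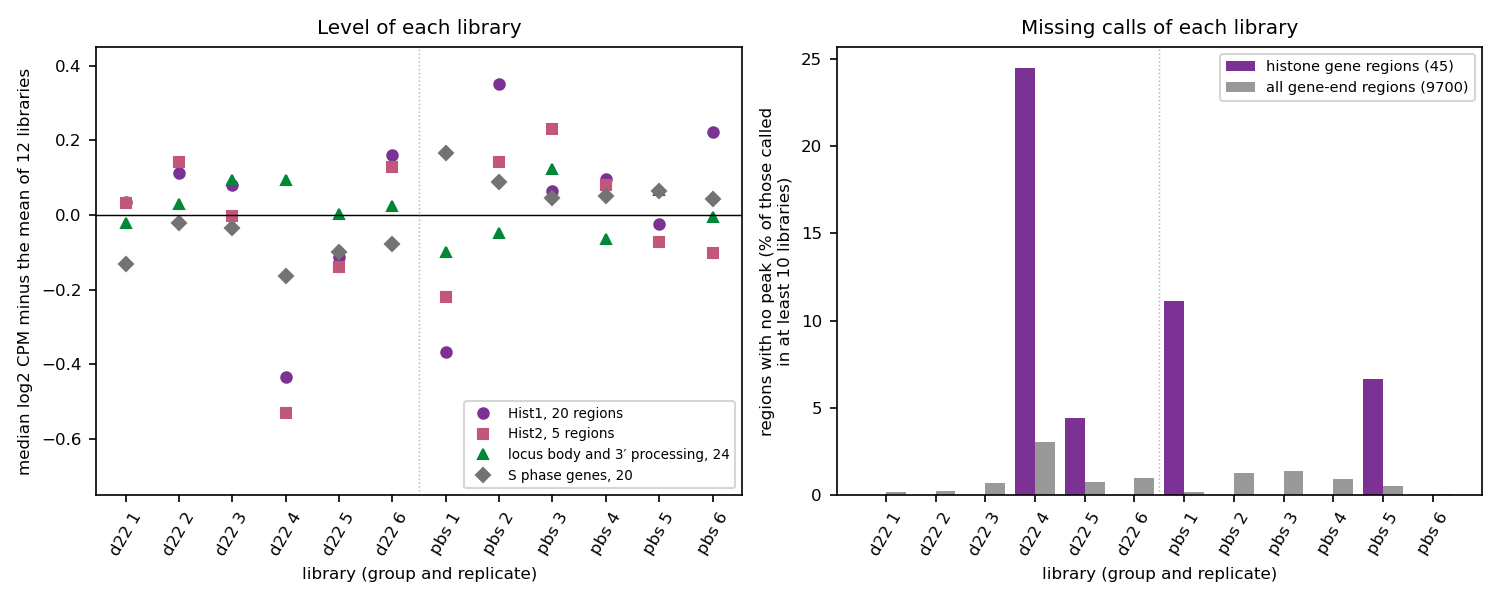
Left, median log2 CPM of each library minus the mean of the 12 libraries, over the regions of Hist1 (circles), Hist2 (squares), genes of the histone locus body and 3′ processing (triangles) and S phase genes (diamonds). Right, percent of regions called in at least 10 libraries that had no peak in each library, for 45 histone gene regions (purple) and 9700 gene-end regions (grey), where d22 replicate 4 reaches 24.4% and pbs replicate 1 11.1%.

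The totals of the clusters were lower in d22 by less than, or about, the spread of the libraries. Scaled tags, the tags in the cluster's peaks per 1000000 filtered tags of the library, numbered 212 ± 60.8 for d22 and 258 ± 59.9 for pbs in Hist1 (SD, n = 6 each), a ratio of 0.821. The d22 libraries ran from 114 through a median of 221 to 294, and the pbs libraries from 183 through 263 to 342. In Hist2 the totals were 118 ± 27.3 and 144 ± 23.9 (SD, n = 6 each, ratio 0.819), running from 85.8 to 163 and from 123 to 188. In Hist3 they were 15.8 ± 3.92 and 18.7 ± 2.87 (SD, n = 6 each, ratio 0.848). Peaks as a whole held fewer of the tags in d22, 20.1 ± 3.13% against 22.9 ± 2.43% (SD, n = 6 each, ratio 0.878). Set against the tags in all peaks instead, the ratios were 0.947 in Hist1, 0.937 in Hist2 and 0.977 in Hist3. In Hist1 the peaks covered 49177 ± 12338 bp (d22) and 52673 ± 7553 bp (pbs), and scaled tags per kb covered were 4.31 ± 0.517 and 4.89 ± 0.851 (SD, n = 6 each). The groups overlapped in every one of these measures in the 3 clusters. In Hist1 the difference of -46.1 scaled tags was -26.6 without d22 replicate 4 and -29.5 without pbs replicate 6. In Hist2 it was -26.1, and -17.3 without pbs replicate 3. In Hist3 it was -2.84, and -1.73 without d22 replicate 4 or without pbs replicate 6. No test was made of these totals over the members.

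**Figure D4:**
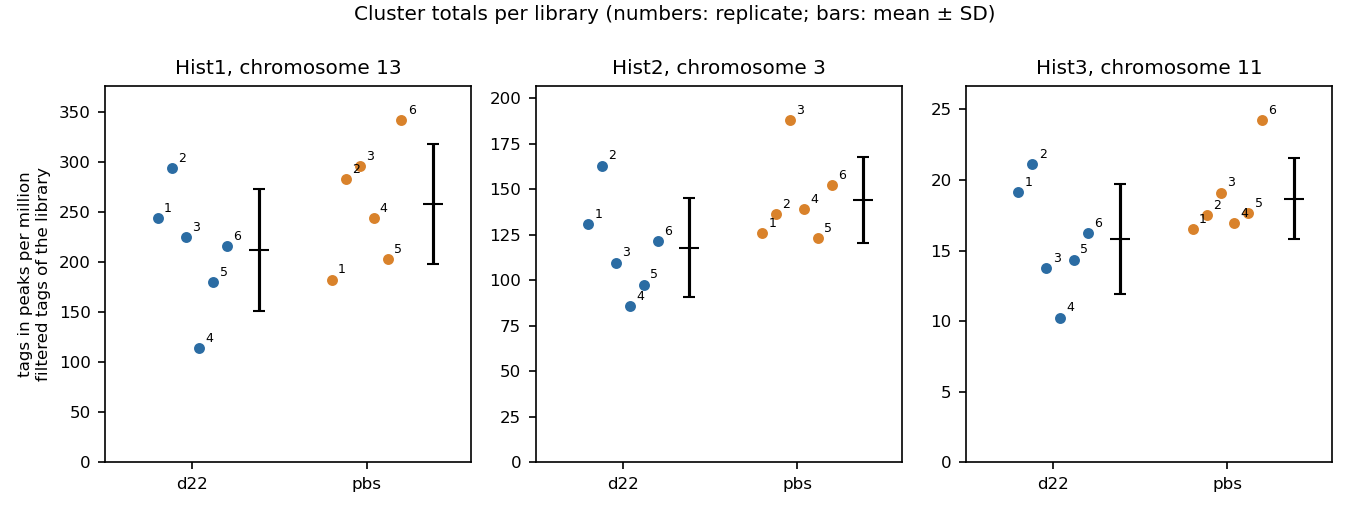
Tags in peaks of each cluster per 1000000 filtered tags of the library, for 6 d22 (blue) and 6 pbs (orange) libraries marked by replicate number, with mean ± SD beside them and axes from 0. The groups overlap in all 3 clusters, and d22 replicate 4 is the lowest library in each.

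Region by region, no tested histone gene region passed the test of tag count between the groups. The test held 28 of the 54 member regions, and no region of the second Hist1 segment. Regions called in 11 libraries, such as those of H3c11 and H4c1/H3c1, or in 1 library entered neither this test nor that of occupancy. None of the 28 passed in edgeR's quasi-likelihood test at an adjusted p of 0.05, where 1.01% of all 12375 tested regions did. Without adjustment 2 of 28 were under 0.05, also in DESeq2's Wald test, against 10.9% of all regions in edgeR. The median log2 difference of the 28 was -0.09 and 18 were negative, beside a median of 0.00 over all regions. Leaving out 1 library moved it to 0.01 without d22 replicate 4, -0.03 without pbs replicate 2 and -0.14 without pbs replicate 1. The groups overlapped in all 28 regions, while they did not in 1.33% of all regions.

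The 3 regions with the smallest p-values were all in Hist1. H1f6/H4c3 (chr13:23697127-23699152) lies over the H4 gene H4c3 and only near the testis linker gene H1f6. It ran from 9.49 to 21.9 CPM with a median of 15.7 in d22, and from 14.1 to 38.4 with a median of 21.6 in pbs. pbs replicates 2 and 6 were above all other libraries at 38.4 and 35.1 CPM. Its log2 difference was -0.63 ± 0.29 (SE; edgeR adjusted p = 0.435), and it was called at a mean of 760 bp in d22 and 1338 bp in pbs. H1f4, which encodes the linker histone H1.4, shares its region (chr13:23620460-23623283) with the upstream end of the 37455 bp gene model of H2bc6, on the minus strand. It ran from 48.4 to 72.4 CPM with a median of 63.3 in d22, and from 63.4 to 97.9 with a median of 73.4 in pbs. The log2 difference was -0.26 ± 0.12 (SE; edgeR adjusted p = 0.435). H4c18/H2ac24 (chr13:21830346-21832324), where an H4 and an H2A gene with near copies lie, was the largest positive value. It ran from 5.75 to 34.2 CPM with a median of 22.5 in d22, and from 10.9 to 18.6 with a median of 15.2 in pbs, a log2 difference of 0.59 ± 0.32 (SE; edgeR adjusted p = 0.545). Here the d22 libraries lay both below and above all pbs libraries.

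The strongest regions had small differences. H1f0 had a log2 difference of 0.03 ± 0.07, H2ac18/H3c14 -0.07 ± 0.10, H2ac6/H2bc4 -0.11 ± 0.12 and H1f2 -0.10 ± 0.12 (SE; edgeR adjusted p = 0.909, 0.874, 0.803 and 0.836). H4f16 was at -0.16 ± 0.13 and H2aw at 0.01 ± 0.11 (SE; edgeR adjusted p = 0.714 and 0.990).

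**Figure D5:**
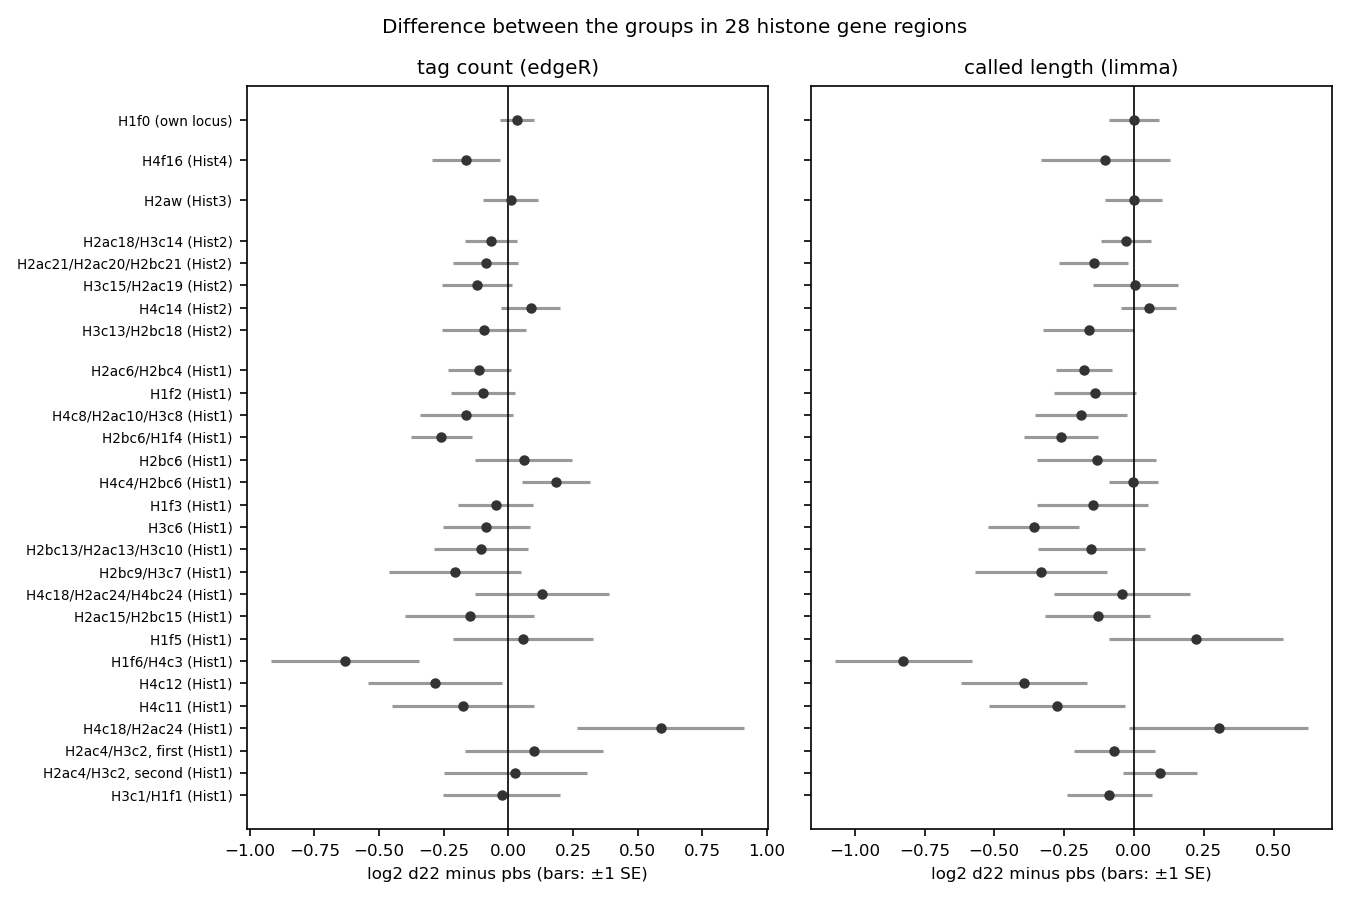
Log2 difference, d22 minus pbs, with bars of 1 SE, in tag count (left) and called length (right) for the 28 member regions in the order of their level within each cluster. Most points lie a little below 0, and H1f6/H4c3 is the farthest from 0 in both, at -0.63 and -0.83.

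No region passed in called length either. In limma none of the 28 regions passed and 2 had an unadjusted p under 0.05, and none of the 12375 regions passed (0%), with 800 under 0.05 unadjusted. H1f6/H4c3 had the largest length difference, -0.83 ± 0.25 (SE; limma adjusted p = 0.504). The median was -0.13 over the 28 and -0.08 over all regions. Tags per kb of called peak passed at none of the 28, with none under 0.05 unadjusted, and at 0.0404% of all regions in limma. The authors' fold enrichment over input, taken as log2 of the highest peak, passed at 6 of 28 regions in limma, where 18.7% of all regions passed, 2161 of 2319 of them lower in d22. H4c8/H2ac10/H3c8, H2bc6/H1f4, H1f2, H2ac18/H3c14 and H4c18/H2ac24 were lower, by log2 differences of -0.82, -0.75, -0.58, -0.56 and -0.57, and the first region of H2ac4/H3c2 was higher by 0.63. The median was -0.35 over the members and -0.30 over all regions, and this ratio holds the input of each group, which cannot be told apart from the group itself.

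Regions called in some libraries only gave no call between the groups, in a test whose smallest unadjusted p for 6 against 6 libraries is 0.00216, so that few regions alone could not pass adjustment. Of 16871 regions called in 2 to 10 libraries none passed in Fisher's exact test (0%), with 99 under 0.05 unadjusted, and of the 8 member regions among them none was under 0.05. The second region of H2ac10/H3c8 (chr13:23534924-23536024) was called in 3 d22 and 6 pbs libraries (two-sided Fisher's exact test, p = 0.182, adjusted p = 1). The region of H4c6, an H4 gene, was called in 4 and 6, and the first region of H3c3/H2bc3 in 6 and 4.

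Genes that work with these loci did not pass the tests either, with 1 region tested for each gene, the one with the most tags. All 22 genes of the histone locus body and of histone message processing had a peak in all 12 libraries, and none of their 22 regions passed (median log2 0.01). Of 23 genes for histone chaperones and deposition, 22 were called in all 12 and none passed (median 0.02). Mcm2 is in this list and also among the S phase genes. Of 11 replication-independent variant histone genes, 9 were called in all 12 and none passed (median 0.07). This list is not separate from the members, since H1f0 and H1f10 belong to both. Among 24 S phase genes, 18 were called in all 12 and none passed. Their median log2 difference was -0.12 and 13 of 18 were negative, beside 49.1% of all tested regions. Over all 20 tested regions at the S phase genes' ends, the median deviation per library was -0.16 to -0.02 in d22 and 0.04 to 0.17 in pbs. No test was made of these medians, and the list was chosen with earlier results of these data known. Of the libraries low at the histone genes, d22 replicate 4 was the lowest of the 12 at the S phase genes at -0.16. pbs replicate 1 was the highest there at 0.17. Between the histone genes of Hist1 lie 50 other protein-coding genes, of which 39 had no peak in any library, 6 had one in all 12, and none of their 7 tested regions passed (median 0.08).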

How the data were processed

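H3K9ac ChIP-seq peak tables of 12 libraries (6 titled d22, 6 titled pbs) were analysed. The 2 pooled inputs were not analysed here. Per the submitters' processing notes, base calling used CASAVA 1.8, alignment used Novoalign on mm10, and MACS 1.4.2 called the peaks. The headers show that each library was called alone at a p-value cutoff of 1e-05, with at most 1 tag kept per position, against the pooled input of its title group. The deposited columns used were the raw count of tags in each peak, the peak's length, the score (the log10 of its p-value times -10) and a fold enrichment ratio over local background, each the authors' own value per the file headers.

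Peaks overlapping by at least 1 bp were merged over the libraries, and each library's tags were summed over its peaks within a region. Only regions with a peak in all 12 libraries were tested for tag count (edgeR 4.0.16 quasi-likelihood test, robust, TMM scaling, group as the only term, Benjamini-Hochberg adjustment over all 12375 regions at 0.05). Called length, tags per kb and fold enrichment were tested on the log2 scale with limma 3.58.1, and occupancy with Fisher's exact test (SciPy 1.17.1). DESeq2 1.42.0 and R 4.3.3 were also used. A standard error is the size of the log2 difference over the root of the F statistic. The tests of tag count, called length and occupancy were tried on simulated data, those of tags per kb and fold enrichment were not. edgeR called 53 of 100 regions changed 1.5-fold, 93 of 100 changed 2-fold and 9 of 12175 unchanged regions. The changed regions were drawn at random from all tested regions, so these rates are not those of the histone gene regions. The median standard error in the data was 0.14 over all tested regions and 0.24 over those of Hist1. Fisher's exact test called 0 of 200 regions present in every library of 1 group and absent from the other. The simulated lengths had a set spread, not that of the data. Gene ends, older symbols, start sites and promoters came from RefSeq tables (GRCm38.p6, the same coordinates as mm10). Member genes were matched on current or older symbols, and pseudogenes were left out.

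Genes given with values are those of the 3 regions with the smallest p-values in tag count, the 3 highest and 3 lowest regions of each cluster, members outside the clusters, members with no peak, and up to 5 members with the largest group difference in number of libraries. The members and gene lists were chosen with earlier results of these data known. Duplicate libraries were looked for among 66 pairs, and none was found (chi-square of counts over its degrees of freedom 2.41 to 10.3). Alternatives covered scaling, test, filters, peak score, merging, window, a replicate block and leaving out each library.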

Additional observations from a re-analysis of the deposited data

Results flagged for a closer look

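In 58 sets of 6 libraries (cluster values and levels of named regions by group), the highest or lowest library was checked by Dixon's ratio, the gap to the nearest other library over the group's range, against its critical value, and 14 were found. Chance gives about 1 in 20 for single sets of continuous values, and these sets share libraries. d22 replicate 4 had the fewest marked genes of d22, 37 in Hist1 with the next at 49, and 50 of all 71 with the next at 62. pbs replicate 1 had the fewest of pbs, 45 in Hist1 with the next at 52, and 58 of 71 with the next at 65. Within pbs, replicate 6 alone had peaks at both Hist3 genes (2, the others 1), a count of so few values that any single library apart is found, and it had the highest Hist3 total of pbs, 24.2 tags per 1000000 filtered tags with the next at 19.1.

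For tags per kb covered on the same scale, d22 replicate 2 was the highest of d22 at 5.34 in Hist1, 11.1 in Hist2 and 6.92 over all members. pbs replicate 3 was the highest of pbs at 14.1 in Hist2 and 8.44 over all members. d22 replicate 4 was the lowest of d22 at 4.17 in Hist3, and also at H2aw with 61.7 CPM against a next value of 88.4. At H4c8/H2ac10/H3c8, pbs replicate 2 stood at 154 CPM with the next at 90.2. The part of depth and fragment length in these gaps was not tested.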

How the results depend on the processing

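None of the tested histone gene regions passed in tag count under any alternative run on tags: other scalings, DESeq2's Wald test, a mean of at least 50 tags, peak scores of at least 100, merging of peaks up to 500 bp apart, a replicate block, or leaving out each library. Under the authors' fold enrichment 6 passed. Over all regions, 125 passed in tag count, against 454 with library totals as the only scaling, 272 in DESeq2's Wald test, 0 by called length, 5 by tags per kb, 2319 by fold enrichment, and 64 to 139 on leaving out each library. Library totals also moved the median of all regions to -0.22 and that of the members to -0.30 on the log2 scale. They turned the sign at H2aw (-0.22), H1f0 (-0.19), H4c14 (-0.14) and the first and second regions of H2ac4/H3c2 (-0.11 and -0.20), none of which passed. Called length passed at 0 to 12 regions and tags per kb at 0 to 5 on leaving out each library. On leaving out each library the log2 differences of the named regions that changed sign ran from -0.251 to 0.0325 at H4c8/H2ac10/H3c8, -0.104 to 0.0717 at H3c1/H1f1, -0.180 to 0.00104 at H3c15/H2ac19, -0.140 to 0.00891 at H2ac21/H2ac20/H2bc21, -0.115 to 0.0260 at H2ac18/H3c14, -0.175 to 0.00256 at H3c13/H2bc18, -0.0336 to 0.0857 at H2aw, and -0.0461 to 0.244 and -0.118 to 0.245 at the first and second regions of H2ac4/H3c2. The cause was not tested. Histone genes with a peak in all 12 libraries numbered 44, and 21 with scores of at least 100, where their share fell below that of all genes. In an alternative chosen after seeing the data, regions called in the other 11 libraries were tested without d22 replicate 4: none of 36 histone gene regions passed, with a median of 0.02, and without pbs replicate 1 none of 31 passed, with a median of -0.13. Same-numbered libraries deviated together with correlations of -0.006 to 0.160, so the numbers were not taken to pair them; replicate 2 alone was its own best partner. The replicate block gave 128 regions in all, 0 of the 28, and a lowest adjusted p of 0.348 among them. Regions with few tags limit the precision, since H3c1/H1f1 had 16.2 CPM on average and a standard error of 0.23, against 0.07 at H1f0.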
